A study of Mus musculus with 12 samples.

Results

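The transcriptome of wild-type (WT) fully grown mouse oocytes at the germinal vesicle (GV) stage was described from 3 libraries, WT replicates 4, 5 and 6, each made from 20 pooled oocytes. Its members were chosen by level, as the genes with an FPKM value (fragments mapped to a gene, scaled to transcript length and to the fragments of the library, a level per length) of at least 1 in all 3 libraries, and 6168 of the 24255 genes in the table met this. The oocytes came from C57BL/6 females of genotype WT at 3 weeks of age, collected 46 h after priming with 5 IU of the gonadotropin PMSG per mouse. The series holds 12 libraries in 4 groups of 3, and the other groups, which carry altered alleles of Dpagt1, were not compared here. Each value averages over a pool, so that a transcript present in all oocytes of a library cannot be told apart from one carried by a few. The labels do not say whether the 3 libraries came from different mice, so the spread between them may be technical.

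A GV oocyte is arrested in prophase of the first meiotic division and has stored the mRNAs and proteins that will carry it through meiosis, fertilization and the first cleavage. Transcription is largely shut down in the fully grown oocyte, and many stored transcripts are kept with short tails and translated only when meiosis resumes. Genes active almost only in oocytes, many of them in tandem arrays, are known to supply a large part of this store.

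The 3 libraries were alike in size. Between 7641 and 7716 genes reached 1 FPKM in a library, between 9359 and 9622 genes were above 0, and the FPKM values summed to between 1167362 and 1226005. The table gives no fragment counts. The smallest steps between the values of long single-transcript genes put 1 fragment at between 1.68 and 1.97 FPKM x kb, which corresponds to an estimated 856157 to 1038686 fragments on genes in a library. At 1 FPKM a transcript of the median member length, 2268 nt, was therefore backed by between 1.15 and 1.35 estimated fragments, and 3255 members (53.2% of those with a length) had at least 10 estimated fragments in each library. Intervals from such numbers would cover counting error only, since amplified cDNA molecules were not counted individually.

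The marker genes of the oocyte, Zp3, Dppa3, Gdf9 and Ooep, were well above the threshold in every WT library. Fewer cells with a transcript and less of it in each cell cannot be told apart in pooled oocytes. Dppa3, a maternal protein that protects the DNA methylation of the zygote, had 27299, 26356 and 30143 FPKM in replicates 4, 5 and 6, and it was the 4th most abundant gene in each. Ooep, a subunit of the subcortical maternal complex, had 6313, 6012 and 7181 FPKM and rank 28 by its mean. Gdf9, the growth factor by which the oocyte directs its granulosa cells, had 3404, 2934 and 3243 FPKM and rank 76. Zp3, the zona pellucida protein, had 674, 599 and 627 FPKM and rank 300. Among them the values of Dppa3, Ooep, Gdf9 and Zp3 did not overlap, so that the order of these 4 genes held in all 3 libraries, and their coefficients of variation (SD over mean, n = 3) lay between 5.98% for Zp3 and 9.33% for Ooep. The 3 nearest genes above and below Ooep, Gdf9 and Zp3 in rank overlapped with them, whereas of those around Dppa3 only Mphosph6, next below it, did. Gdf9 sat between Fbxw16 (3238 FPKM) and Cks1b (3150 FPKM), and Zp3 between Cox6a1 (637 FPKM) and Cnot7 (629 FPKM). In mm10 Dppa3 lies at chr6:122626423-122630271, Ooep at chr9:78376902-78378588, Gdf9 at chr11:53433285-53437902 and Zp3 at chr5:135980104-135988624. Dpagt1, the gene altered in the other groups, was listed at 0 in all 3 WT libraries, so that the table gives no check of the WT label through that gene, although none of the 75-base stretches of its transcript occurs in a transcript of another gene. The paper of this study reports Dpagt1 mRNA in oocytes, so the 0 is not evidence that the transcript was missing.

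**Figure D1:**
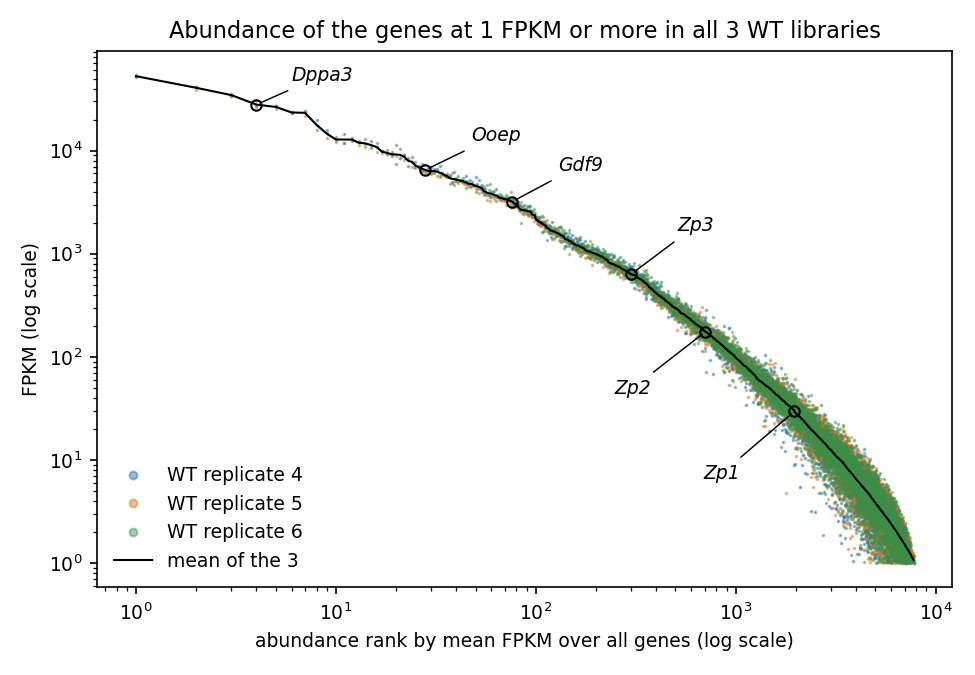
FPKM of the 6168 genes at 1 FPKM or more in all 3 WT libraries (vertical axis, log scale) against abundance rank by mean FPKM over all genes (horizontal axis, log scale). Points are the libraries, the line is their mean and circles mark 6 oocyte genes. Levels fall from 52691 FPKM to 1, and the points of the 3 libraries spread apart toward the low end.

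Few genes held most of the transcripts. The most abundant gene took 4.37% ± 0.14 (SD, n = 3) of the FPKM sum, the top 10 took 22.7% ± 0.19, the top 100 took 59.9% ± 0.42 and the top 1000 took 92.2% ± 0.19. By the mean, 13 genes made up 25% of the sum, 60 genes 50% and 779 genes 90%. The 197 genes with a mean of at least 1000 FPKM, which are 0.812% of the table, held 71.1% ± 0.36 of the sum. At the other end, 12730 genes (52.5%) were listed at 0 in all 3 WT libraries.

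The head of the list was led by oocyte-specific homeobox genes. Obox2 had 53924, 52453 and 51697 FPKM in replicates 4, 5 and 6. Obox1 had 35544, 33956 and 34059 FPKM, and Obox5 had 24055, 21842 and 23858 FPKM. Obox2 exceeded Obox1 by 1.53-fold ± 0.02 (SD of the ratio, n = 3) with no overlap, and the 3 genes together made 9.16% ± 0.19 of the sum. The other 2 Obox genes of the table were low. Obox3 was listed at 0 in replicate 5 and averaged 1.15 FPKM, and Obox6 was listed at 0 in all 3. Obox1 and Obox2 share 47.1% and 48.9% of their 75-base stretches with transcripts of other genes, against 3.47% for Obox5, so that the split of reads between Obox1 and Obox2 is uncertain.

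The other genes of the top 30 included both oocyte-specific and general ones. Gm15698 ranked 2nd with 41387, 38772 and 41775 FPKM. Mphosph6, a cofactor of the RNA exosome, ranked 5th with 27102, 25478 and 26949 FPKM. Ubb, a polyubiquitin gene, ranked 6th with 23322, 23143 and 23832 FPKM. The general genes further down were Tceb1 (elongin C, 12814 FPKM), Skp1a (the SKP1 subunit of SCF ubiquitin ligases, 9759 FPKM), Tmsb10 (an actin monomer binder, 7938 FPKM) and Calm2 (calmodulin, 6899 FPKM). The oocyte genes were Tcl1 (a coactivator of AKT kinases, 17758 FPKM), Omt2a and Omt2b (14589 and 11924 FPKM), Bcl2l10 (a BCL2 family member, 12799 FPKM), Rfpl4 (a RING finger protein of oocytes, 12792 FPKM), H1foo (the oocyte linker histone, 9196 FPKM), Btg4 (an adaptor for deadenylation of maternal mRNA, 6325 FPKM) and 4 Fbxw genes that encode F-box proteins. Of the 29 neighbouring pairs in this top 30, 5 had no overlap of their values and 10 stood in the same order in all 3 libraries, so most single steps in rank were within the spread. In 4 of the 30 (Ubb, Gm10436, Rpl37rt and Fbxw28) at least 50% of the 75-base stretches occur in another gene's transcript, and their levels are uncertain for that reason, whereas 8 of the 30 share none. Ubb also shares its locus in the table with Gm1821, which ranked 43rd.

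**Figure D2:**
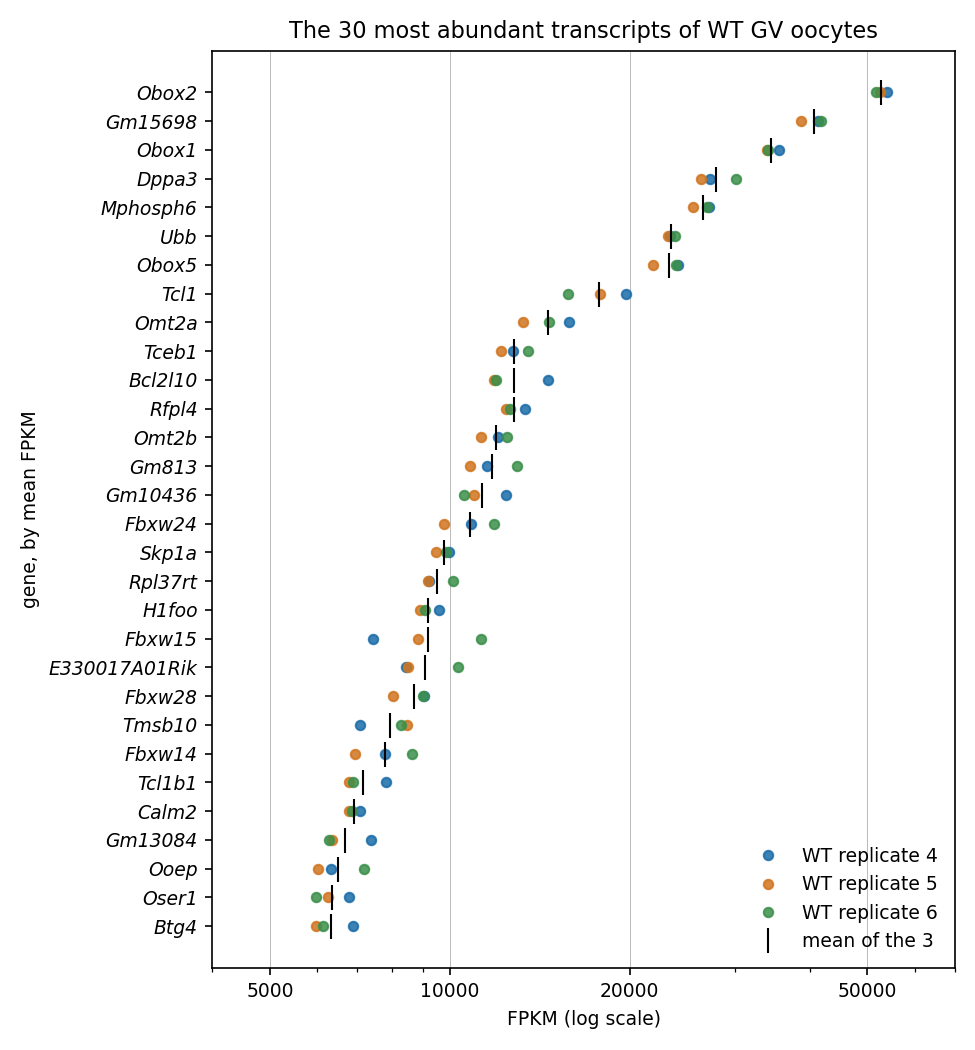
FPKM (horizontal axis, log scale) of the 30 genes of highest mean in WT GV oocytes, one gene per line. Points are WT replicates 4, 5 and 6 and the black tick is their mean. The 3 points lie close together for most genes, and Fbxw15, at 7437, 8850 and 11249 FPKM, is spread most widely.

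The bases in front of these genes are shown because a leading group shares sequence there. Each sequence is the 250 bases before the RefSeq start site (GRCm38.p6, the assembly named mm10 in the processing notes), 5′ to 3′ on the strand of the gene, in lower case with each E-box CANNTG in capitals. The E-box is the motif bound by basic helix-loop-helix factors such as FIGLA, an oocyte factor known to act on the zona pellucida genes. The windows are Obox2 at chr7:15388601-15388850 (+), Obox1 at chr7:15547007-15547256 (+), Obox5 at chr7:15750120-15750369 (+), Oog3 at chr4:144162652-144162901 (-), Zp3 at chr5:135979855-135980104 (+) and Mphosph6 at chr8:117801975-117802224 (-).
Obox2: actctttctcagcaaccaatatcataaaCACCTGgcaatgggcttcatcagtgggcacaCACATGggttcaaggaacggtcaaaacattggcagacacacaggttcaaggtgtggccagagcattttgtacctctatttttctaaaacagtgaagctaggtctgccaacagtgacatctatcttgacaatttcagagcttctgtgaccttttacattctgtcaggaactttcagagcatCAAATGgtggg
Obox1: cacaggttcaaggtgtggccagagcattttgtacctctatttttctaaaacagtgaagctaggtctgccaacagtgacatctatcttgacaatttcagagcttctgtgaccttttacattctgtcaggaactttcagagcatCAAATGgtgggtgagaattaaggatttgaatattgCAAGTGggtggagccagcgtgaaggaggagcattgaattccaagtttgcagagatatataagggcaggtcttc
Obox5: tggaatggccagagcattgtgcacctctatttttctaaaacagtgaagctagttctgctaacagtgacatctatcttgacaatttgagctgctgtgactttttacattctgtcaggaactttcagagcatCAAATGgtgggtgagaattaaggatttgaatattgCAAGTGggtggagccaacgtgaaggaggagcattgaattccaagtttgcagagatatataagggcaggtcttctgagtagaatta
Oog3: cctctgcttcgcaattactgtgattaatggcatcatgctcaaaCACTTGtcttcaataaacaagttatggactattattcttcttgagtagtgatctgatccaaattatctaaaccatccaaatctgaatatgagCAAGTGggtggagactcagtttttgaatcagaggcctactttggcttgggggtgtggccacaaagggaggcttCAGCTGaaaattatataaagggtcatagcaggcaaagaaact
Zp3: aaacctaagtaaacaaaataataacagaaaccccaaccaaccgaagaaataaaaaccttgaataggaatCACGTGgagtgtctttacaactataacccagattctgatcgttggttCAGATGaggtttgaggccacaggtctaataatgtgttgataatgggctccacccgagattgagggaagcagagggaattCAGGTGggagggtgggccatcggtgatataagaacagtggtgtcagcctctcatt
Mphosph6: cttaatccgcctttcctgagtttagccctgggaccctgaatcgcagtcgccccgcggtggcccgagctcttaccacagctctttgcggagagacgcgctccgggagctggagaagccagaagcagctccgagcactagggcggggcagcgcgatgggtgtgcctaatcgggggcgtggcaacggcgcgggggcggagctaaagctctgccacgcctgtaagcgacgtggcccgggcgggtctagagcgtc
Counted back from the start site at -1, the bases of Obox1 from -139 to -58 are identical to those of Obox5 from -151 to -70, a stretch of 82 bases that holds both E-boxes of each window. The bases of Obox1 from -250 to -98 are identical to the last 153 bases of the Obox2 window, so that the annotated start sites of this pair fall at different places in a shared sequence. Oog3, a gene of another family with 4924, 4564 and 4685 FPKM, shares a stretch of 14 bases with Obox1 that includes the E-box at -115 (-73 in Obox1), and it has the letters TATAAA at -29. The share of other gene pairs with such a match was not computed, so nothing is read from it. The Zp3 window holds E-boxes at -181, -134 and -55. The Mphosph6 window holds no E-box and 26 CpG, against 1 CpG in each of the Obox2, Obox1, Obox5 and Oog3 windows. These matches describe letters in a window and were not tested as binding sites.

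Over the abundance classes, the windows of the most abundant genes held fewer CpG than those of the 3 lower classes. Their share with an E-box was above that of those classes but near the share over all promoters. In the class of at least 1000 FPKM, 158 of 197 genes had a window, the median was 11 CpG and 36.7% (58 windows) had 5 CpG or fewer. The classes of 1 to under 10, 10 to under 100 and 100 to under 1000 FPKM each had a median of 15 CpG, and 15.7% to 18.0% of their windows had 5 or fewer, against 49.6% of all 32851 promoter windows of the RefSeq table. CANNTG, which reads the same on both strands in this form, was in 69.6% of windows of the top class and in 57.9% to 59.5% of the lower 3, with 66.2% over all promoters. CAGGTG, a form of CANNTG searched on both strands and chosen after its values were seen, was in 28.5% of the top class, 14.7% to 17.0% of the lower 3 and 17.2% of all promoters. CAGCTG, also chosen after its values were seen, was in 23.4% of the top class, 11.9% to 14.7% of the lower 3 and 4271 of all 32851 promoters. TATAAA on either strand was in 10.1% of the top class, 7.42% to 9.02% of the lower 3 and 12.4% of all promoters. CCAAT was in 43.0% of the top class and 37.5% to 41.7% of the lower 3, and TAATTA or TAATTG in 11.4% and 7.52% to 8.59%.

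Clustered oocyte families made up part of the low CpG values. Of the 58 windows of the top class with 5 CpG or fewer, 25 belonged to these families and 33 to other genes, a split chosen after the values were seen. The Obox, Fbxw, Oog, Oosp, Omt2, Tcl1, Rfpl4, Nlrp and Khdc1 groups had 47 genes at 1 FPKM or more in all 3 libraries. Of these 47, 39 had a window, and 36 of the windows (92.3%) had 5 CpG or fewer with a median of 1. Genes of these groups below that level were not counted. In contrast, 1 of 65 windows of mitochondrial ribosomal protein genes, 3 of 60 of oxidative phosphorylation genes and 1 of 27 of proteasome genes had 5 or fewer. Genes of these families share ancestry and in part sequence, so that they are not independent examples. All 26 windows of these families in the top class held CANNTG, against 63.6% of the 132 windows of its other genes and 66.2% of all promoters. CAGCTG was in 57.7% of the family windows and 16.7% of the others, and CAGGTG in 38.5% and 26.5%. A set was read only where at least 80% of its genes had a window. The other genes of the top class, at 79.0% of 167, fell just short of that minimum and the whole class, at 80.2%, just above it, so that the shares of the other genes are given as values with nothing read from them. Classes under 1 FPKM were left out for the same reason.

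**Figure D3:**
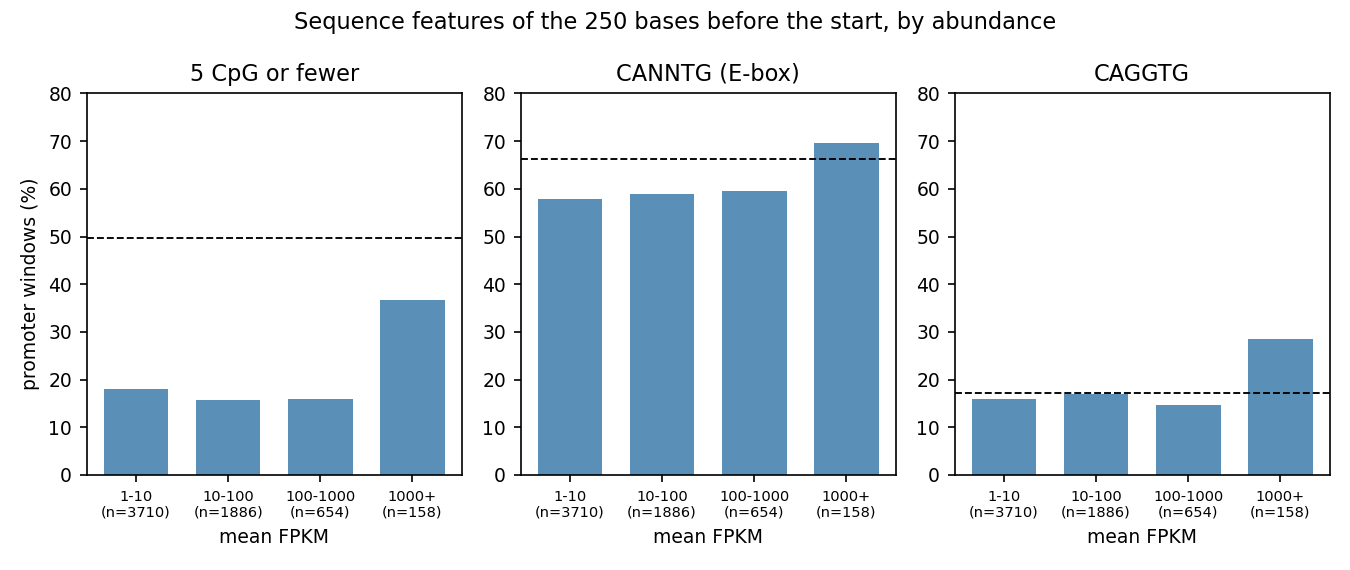
Percent of promoter windows (vertical axis) with 5 CpG or fewer, with CANNTG and with CAGGTG, by class of mean FPKM (horizontal axis, number of windows in parentheses). The dashed line is the share over all 32851 promoters. The class of 1000 FPKM and over stands at 36.7%, 69.6% and 28.5%, above the other 3 classes in each panel. Its 69.6% for CANNTG is near the 66.2% over all promoters.

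Some of the most abundant genes lay near each other in the genome. Of the 197 genes of at least 1000 FPKM, 67 (34.0%) lay within 500 kb of another, and 7 groups of at least 3 such genes held 37 genes and 24.5% of the FPKM sum. The share of genes so close was not computed over all genes or lower classes, so nothing is read from the 34.0%. The spans also held less abundant genes, with 18 genes in all in the chromosome 4 span and 8 in that on chromosome 7. The largest by share was on chromosome 7 at chr7:15388850-15922371 (mm10), with Obox2, Obox1, Obox5 and Sepw1, a selenoprotein gene, at 9.26% ± 0.20 (SD, n = 3). A span of 651 kb at chr9:109139453-109790650 held 11 Fbxw genes at 4.72% ± 0.52. On chromosome 4, 7 genes including Oog2, Oog3 and Oog4 made 3.15% ± 0.11, and on chromosome 9 Omt2a, Omt2b, Dppa5a and Ooep lay within 66.6 kb and made 3.01% ± 0.12. The Tcl1 group on chromosome 12 made 2.76% ± 0.25, the Oosp group on chromosome 19 made 0.877% ± 0.061 and the Oas1 group on chromosome 5 made 0.712% ± 0.0095. These array genes were not all equally steady. The summed FPKM of the Fbxw genes was 56042, 52369 and 66857, highest in replicate 6, whereas that of the Tcl1 genes was 37113, 32817 and 30978, lowest in replicate 6.

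The groups of genes with known oocyte roles were largely present, and the share of members at 1 FPKM or more in all 3 libraries is to be read against 25.4% over all genes of the table. All 8 genes of the subcortical maternal complex, which lines the egg cortex and is needed for the first cleavage, reached it, with a median of 291 FPKM. Below Ooep came Zbed3 at 2918, 3140 and 1972 FPKM and Khdc3 at 736, 741 and 668 FPKM. Nlrp5, the founding subunit known as MATER, had 227, 187 and 158 FPKM. The levels of the complex ran from 6502 FPKM for Ooep to 45.7 FPKM for Nlrp2.

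The zona pellucida genes encode the glycoproteins of the egg coat. Zp3 exceeded Zp2 (191, 163 and 171 FPKM) by 3.62-fold ± 0.09 (SD, n = 3), and Zp2 exceeded Zp1 (34.8, 22.3 and 31.9 FPKM) by 6.06-fold ± 1.07. The 3 genes did not overlap in any library. Of the secreted growth factors, Gdf9 exceeded Bmp15 (1823, 1443 and 1316 FPKM), its partner in signaling to cumulus cells, by 2.12-fold ± 0.31 with no overlap. Fgf8 had 101, 90.7 and 61.0 FPKM, and Bmp6 was listed at 0 in replicate 6 and averaged 1.31 FPKM. Of the egg surface genes, Izumo1r (Juno, the sperm receptor) had 278, 318 and 332 FPKM, Cd9 had 194, 225 and 172 FPKM, and Cd81 was listed at 0 in all 3.

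Of the genes that keep and clear stored mRNA 20 of 24 reached 1 FPKM in all 3 libraries, with a median of 23.9 FPKM over the list. Btg4 led with 6876, 5972 and 6127 FPKM, followed by Slbp (the histone mRNA stem-loop binder, 3672 FPKM) and Zar1l (1321 FPKM). Zar1l exceeded its relative Zar1 (119 FPKM) by 11.2-fold ± 1.8. Cnot7, a catalytic subunit of the CCR4-NOT deadenylase, had 747, 578 and 563 FPKM and exceeded Cnot6l, another deadenylase of the complex, by 23.6-fold ± 5.6.

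Maternal chromatin genes made 3.89% ± 0.07 of the sum and 16 of 19 reached 1 FPKM in all 3. Dppa3, H1foo, H3f3b and H3f3a (the last 2 encoding histone H3.3) led the list. H3f3b had 4796, 4248 and 4487 FPKM and exceeded H3f3a by 1.80-fold ± 0.15 with no overlap. The histone chaperones Asf1b (233 FPKM) and Asf1a (204 FPKM) overlapped. Dnmt1, the maintenance DNA methyltransferase, averaged 69.9 FPKM and exceeded the de novo enzyme Dnmt3a (3.66 FPKM) in all 3 libraries, by 14.5- to 31.9-fold. Zfp57, which guards imprints, had 1550, 1711 and 1145 FPKM. Of 64 replication-dependent histone genes, 20 (31.25%) reached 1 FPKM in all 3, near the 25.4% over all genes, and 24 were listed at 0. Hist1h2bc was the highest at 1192, 1373 and 1593 FPKM.

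Of the oocyte transcription factors, 11 of 17 reached 1 FPKM in all 3, and apart from the Obox genes their levels were moderate. Figla averaged 119 FPKM (79.6, 122 and 156), Nobox 51.4 FPKM (49.9, 52.1 and 52.1), Lhx8 34.8 FPKM and Sebox 21.0 FPKM. Sall4, a zinc finger factor, had 261, 206 and 137 FPKM. Sohlh1, which acts in small follicles, was listed at 0 in all 3.

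The cell cycle genes included partners of unequal level. Of the CDK1 list, 16 of 17 reached 1 FPKM in all 3. Cks1b and Cks2, small subunits that bind CDK1, had 3150 and 3060 FPKM and overlapped. Mos, the kinase of the cytostatic factor, had 1448, 1125 and 942 FPKM, and Ccnb1, the cyclin B1 gene, had 919, 739 and 703 FPKM. Cdk1 itself had 32.6, 28.6 and 31.6 FPKM, so that Mos exceeded it by 37.9-fold ± 7.4, and Ccnb1 exceeded Ccnb2 (91.8, 123 and 133 FPKM) by 7.11-fold ± 2.5. Among segregation genes, 15 of 20 reached 1 FPKM in all 3, led by Birc5 (survivin, of the chromosomal passenger complex) at 4728, 4548 and 5017 FPKM and Mad2l1 (a spindle checkpoint protein) at 1444, 1292 and 1397 FPKM. Pttg1 (securin) averaged 937 FPKM and Esco2 (a cohesin acetyltransferase) 664 FPKM. Aurkc, the Aurora kinase of germ cells, had 202, 237 and 281 FPKM, above Aurka (89.1, 58.5 and 48.2 FPKM) with no overlap, and Rec8, the meiotic cohesin, was listed at 0 in all 3.

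Of the genes of cAMP and meiotic arrest, some that hold it and some that end it, 4 of 13 (30.8%) reached 1 FPKM in all 3. This share is near the 25.4% over all genes. Wee2, the oocyte kinase that inhibits CDK1, had 120, 115 and 102 FPKM, and Gnas, the stimulatory G protein, had 51.1, 35.6 and 39.3 FPKM. Gpr3, the receptor that keeps cAMP high, had 4.18, 1.89 and 4.86 FPKM. Pde3a, the phosphodiesterase that breaks cAMP down, had 1.59, 0.449 and 0.385 FPKM, and Adcy3 and Prkacb were listed at 0. Values of this size rest on few estimated fragments. Of the genes of exchange with granulosa cells, Gja4 (connexin 37 of the gap junction) led with 97.2, 114 and 71.7 FPKM, and Kit had 12.4, 18.0 and 18.0 FPKM. Of the small RNA list, 5 of 12 reached 1 FPKM in all 3, with Dicer1 at 125, 97.4 and 105 FPKM. For calcium handling 8 of 12 did, led by Calm2, and Calm3 was listed at 0.

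Most genes of protein synthesis, turnover and respiration reached the threshold. Among mitochondrial ribosomal proteins 72 of 77 reached 1 FPKM in all 3 (median 59.6 FPKM), led by Mrps33 (1578 FPKM), Mrpl14 (1243 FPKM) and Mrpl34 (1051 FPKM). Among subunits of oxidative phosphorylation 70 of 81 did (median 58.6 FPKM), led by Uqcrh (1057 FPKM) and Uqcr10 (1028 FPKM). Among proteasome subunits 32 of 39 did, led by Psma2 at 1054, 1089 and 1262 FPKM, and the 4 listed at 0 were Psmb8, Psmb9 and Psmb10, which form the immunoproteasome, and Psma8, a subunit of male germ cells. All 18 ubiquitin genes of the list reached 1 FPKM in all 3 and made 3.22% ± 0.05 of the sum, led by Ubb. Of the Sm and Lsm proteins 21 of 23 did, led by Lsm10 (3641 FPKM) and Lsm3 (3034 FPKM). Of 51 initiation factor genes 36 did, with Eif1ax (904 FPKM) and Eif1b (894 FPKM) overlapping at the top.

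The cytosolic ribosomal proteins were unequal. Rpl41 had 3719, 3651 and 3942 FPKM and Rpl39 had 1925, 1976 and 2239 FPKM, and 63 of 84 genes reached 1 FPKM in all 3, while 15 were listed at 0, among them Rpl11, Rplp2 and Rps12. Every cell needs these proteins, so that a listing at 0 here is not evidence that the mRNA was missing. Of the 15, 8 share at least 50% of their 75-base stretches with other transcripts (median 61.0%), against 21 of the 63 (median 36.1%). Rps12 shared 82.4% and Rplp2 23.1%. The part of read sharing in the zeros was not tested.

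Pyruvate and lactate metabolism was led by a single gene. Ldhb, the heart-type lactate dehydrogenase, had 5041, 4883 and 5653 FPKM, while Ldha was listed at 0 in all 3, and 6.01% of the 75-base stretches of Ldha are shared with other genes. Mpc1, a subunit of the mitochondrial pyruvate carrier, had 147, 133 and 129 FPKM, and 15 of the 18 genes of this list reached 1 FPKM in all 3. Oocytes are known to take up pyruvate made by their granulosa cells. Of 13 glycolysis genes 5 reached 1 FPKM in all 3, with a median of 0.689 FPKM. Tpi1 led with 37.5, 30.4 and 34.0 FPKM, and Hk1, Hk2, Pfkl and Pgam1 were listed at 0. Gapdh was listed at 0 in replicate 4 and had 1.75 and 5.99 FPKM in the others, and 88.2% of its 75-base stretches occur elsewhere, so that its level is uncertain. None of those of Hk1 or Pfkl do, but Dpagt1 shares none either, and its 0 is not evidence of absence. The zeros in this and the other lists are therefore not read as absence.

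Of the antioxidant genes 12 of 19 reached 1 FPKM in all 3, led by Prdx1 (2650 FPKM), which exceeded Prdx2 by 1.60-fold ± 0.16 with no overlap. Hsp90aa1, a cytosolic chaperone, had 1248, 1190 and 1265 FPKM and exceeded Hsp90ab1 (13.1 FPKM) in all 3, by 69.3- to 163-fold. However, 53.1% of the 75-base stretches of Hsp90aa1 occur in another gene's transcript, so that its level and this ratio are uncertain. Among 27 genes of N-glycan assembly, the pathway that Dpagt1 opens, 16 reached 1 FPKM in all 3. They were led by Dad1 (1446, 1740 and 1835 FPKM) and Ost4 (308 FPKM), both of the oligosaccharyltransferase, and Dpagt1, Alg5 and Alg6 were listed at 0. For Dpagt1 this is not evidence of absence, since the paper reports its mRNA in oocytes. In the endoplasmic reticulum list 11 of 13 did, led by Ddit3 (the stress factor CHOP) at 316, 353 and 501 FPKM and Canx (calnexin) at 374 FPKM, with Xbp1 listed at 0.

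In the Nlrp family 12 of 18 reached 1 FPKM in all 3 and the other 6 were listed at 0, with Nlrp14 the highest at 5634, 4767 and 4356 FPKM. All 3 Khdc1 genes, all 4 Oog genes, all 3 Oosp genes and all 6 Tcl1 genes did. Of the tubulins, actins and actin monomer binders 14 of 16 did, and Tmsb4x was listed at 0 although none of its 75-base stretches is shared. Of 11 common qRT-PCR reference genes 10 did, with a mean FPKM of 503.9 for Hprt and 198 for Rpl19, the paper's internal control. Among elongation factors 5 of 7 and among SR splicing factors 7 of 11 did. Of 333 zinc finger genes 119 (35.7%) did, led by Zfp57.

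**Figure D4:**
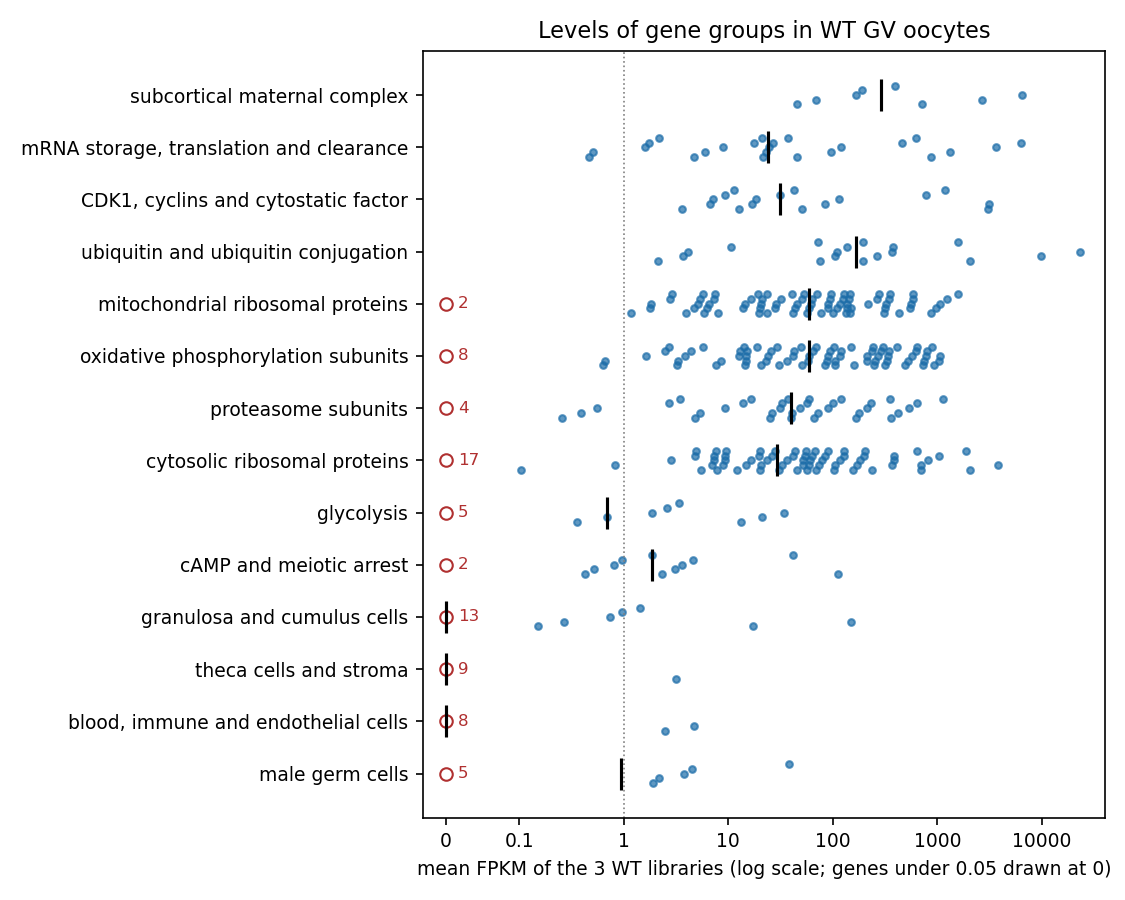
Mean FPKM over the 3 WT libraries (horizontal axis, log scale) for the members of 14 gene lists. Each point is a gene, the black tick is the list median, the dotted line marks 1 FPKM, and an open red circle with a number gives the genes under 0.05 FPKM. Apart from glycolysis (median 0.689 FPKM), lists of egg functions and of general machinery lie mostly above 1 FPKM. The list of cAMP and meiotic arrest does so only narrowly (median 1.87 FPKM). Markers of granulosa, theca and blood cells lie mostly at 0, as do 5 of the 10 male germ cell markers.

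Most markers of granulosa, theca and blood cells were listed at 0 in all 3 WT libraries. These counts are to be read against the 52.5% of all genes so listed. Of 20 granulosa and cumulus markers 13 were listed at 0, among them Amh, Foxl2, Inha and Fst. The summed level of the list was 166, 174 and 170 FPKM. Nearly all of that sum came from Esr2 (estrogen receptor beta, 145, 151 and 152 FPKM) and Cyp19a1 (aromatase, 17.1, 20.1 and 15.1 FPKM), the 2 members that reached 1 FPKM in all 3. None of 10 theca and stroma markers did, 9 were listed at 0, and the sum was between 0.99 and 5.11 FPKM. Of 10 blood, immune and endothelial markers 8 were listed at 0, the hemoglobin genes Hba-a1 and Hbb-bs included, and the sum was between 4.76 and 9.63 FPKM. Since genes that every cell uses are also listed at 0, these zeros say only how the genes are listed.

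A few genes known from other cells were present in all 3 libraries. Tcstv1 and Tcstv3, known from the two-cell embryo, had 1296, 1170 and 1306 FPKM and 295, 244 and 284 FPKM, and Zscan4d had 16.3, 9.24 and 17.6 FPKM. Of the 10 male germ cell markers 3 and of the 10 blastocyst markers 2 reached 1 FPKM in all 3. These counts are to be read against the 25.4% of all genes that did, and nothing is read from them. Among the male markers, Odf1 and Acrv1 rest on 1.19 to 4.76 and 1.19 to 4.78 estimated fragments in a library, against 9.70 to 17.7 for Prm2. Prm2, a sperm protamine gene, had 36.4, 30.8 and 47.8 FPKM, while Prm1, Prm3, Tnp1 and Tnp2 were listed at 0. Gata3, a trophectoderm factor, had 34.5, 39.0 and 39.2 FPKM, while Cdx2 and Eomes were listed at 0. Krt12, a keratin known from the cornea, had 189, 190 and 234 FPKM. Of 1101 olfactory receptor genes 15 (1.36%) reached 1 FPKM in all 3, with Olfr878 the highest at 35.4, 44.5 and 60.7 FPKM, and of 16 imprinted genes 2 did.

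The 3 libraries agreed closely at high levels and less at low levels. Across the 6168 members, which are not independent replicates, Pearson's r of log2(FPKM + 1) between 2 libraries was 0.971 to 0.972 and Spearman's rho was 0.934 to 0.935. The lists of the 10, 100 and 1000 most abundant genes shared 9, 97 and 925 genes in all 3 libraries. The median coefficient of variation over members was 22.6%, with quartiles of 12.4% and 37.3%, and the median SD of log2(FPKM + 1) was 0.29. It fell from 32.7% in the class of 1 to under 10 FPKM to 19.5%, 10.3% and 7.16% in the next 3 classes. The spread expected from counting, from the estimated fragments, had medians of 39.7%, 18.7%, 7.09% and 2.57% in the same order. The measured spread exceeded it by the largest factor among the most abundant genes. The 2 are not the same measure, since a median of SDs from 3 values tends to lie below the true SD. In the lowest class the rule itself also leaves out genes with any value under 1. The most abundant genes also had the shortest transcripts, with a median of 1142 nt at 1000 FPKM and over against 2654 nt at 1 to under 10 FPKM.

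**Figure D5:**
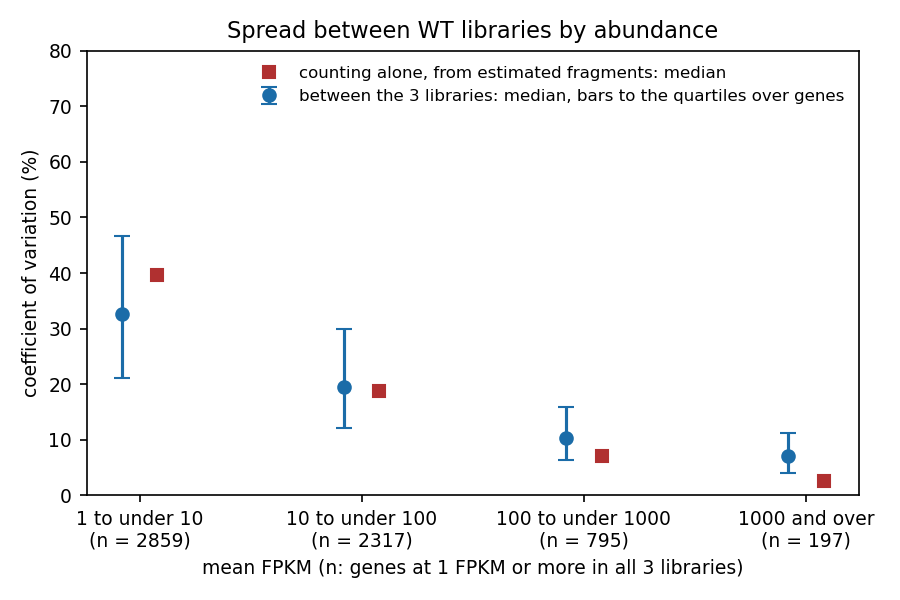
Coefficient of variation in percent (vertical axis) by class of mean FPKM (horizontal axis, n genes in parentheses). Circles are medians over genes of the spread between the 3 WT libraries with bars to the quartiles. Squares are medians of the spread expected from counting, which is not an SD of 3 values. The circles fall from 32.7% to 7.16%, and the squares from 39.7% to 2.57%.

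The highest and lowest values of a gene differed by more than 2-fold for 1675 members (27.2%) and by more than 4-fold for 253. Of the 1675, 1264 were in the class of 1 to under 10 FPKM, 15 in that of 100 to under 1000 FPKM and none in that of 1000 FPKM and over. The value farthest from the others was the highest or lowest of each replicate in 233 to 323 genes, with no library apart from the rest.

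Of the 1000 most abundant genes the steadiest was Emg1, a ribosome biogenesis methyltransferase, at 402, 404 and 400.4 FPKM. Nudt7 had 3577, 3534 and 3587 FPKM, Elof1, a transcription elongation factor, had 5153, 5078 and 5086 FPKM, and the proteasome gene Psma7 had 352, 360 and 357 FPKM. The spread of these 4 was at or below 1.02%, less than counting alone would give at their estimated fragments, and they are the low end of 1000 genes. The widest were Cphx2 and Cphx1, a pair of homeobox genes, which ran in opposite directions. Cphx2 had 284, 169 and 71.3 FPKM and Cphx1 had 68.4, 147 and 242 FPKM in replicates 4, 5 and 6. All 75-base stretches of each transcript occur in another gene, and the sum of both was 352, 316 and 314 FPKM, with a coefficient of variation of 6.59% against 60.8% and 57.1% for the single genes. The values of Cphx1 and Cphx2 taken singly are therefore uncertain. Dynlt1f (89.2% shared), Atp6v0c-ps2 (80.8%) and Hist2h2aa1 (88.9%) were also among the 10 widest, whereas Ccdc6 (189, 96.9 and 53.6 FPKM), Tmem179b (151, 103 and 51.2 FPKM) and 1600002D24Rik (86.0, 173 and 59.3 FPKM) share none.

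At the edge of detection, 3924 genes were above 0 in 1 or 2 of the 3 libraries. Of these 953 averaged at least 1 FPKM, 25 at least 10 FPKM and none 100. The highest were 2210409E12Rik (41.4, 0 and 63.6 FPKM) and Hist1h2bp (32.1, 0 and 23.4 FPKM). Just inside the threshold lay Gprc5c, with a lowest value of 1.00 FPKM, and Wdfy3, and just outside lay Raph1 (1.06, 1.00 and 1.03 FPKM, the middle value being 0.9999) and Ece1. Genes on either side of the threshold thus had overlapping values.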

How the data were processed

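RNA was measured in 3 WT libraries of 20 GV oocytes each, lysed and amplified by Smart-seq2. The labels and the design text name different library kits. The deposited values are FPKM per gene, which the authors made, per the labels, by trimming the reads, aligning them to mm10 with TopHat2 2.0.13 and quantifying with Cufflinks 2.2.1, Cuffnorm and Cuffdiff. The gene annotation is not given in the sources used here. The table also holds the authors' own group comparisons (fold changes, p and q values), which were not used. Several genes can share 1 locus in the table (5708 do), and reads of near-identical genes are divided by the estimation, which can move a gene's level or leave it at 0. Starts were counted from 1.

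The 3 WT columns were used as deposited, with a minimum of 1 FPKM and log2(FPKM + 1) for SDs (Python 3.11.15, pandas 2.3.3, numpy 2.4.6). No test was made, since no groups were compared. Transcript lengths were those of the middle-length RefSeq-linked GENCODE M21 transcript (6117 of 6168 members, none over 25000 nt), and promoters and the positions of genes with a shared locus came from RefSeq GRCm38.p6. A promoter was the window nearest to the 5′ end of the gene, found for 5007 members. Fragments were estimated from the smallest steps of single-transcript genes of at least 2000 nt times FPKM and full length, which overstates short transcripts and is approximate. The members and the 50 gene lists were chosen with earlier results of these data known. Genes were named by rule: the 4 markers and their 3 neighbours on each side, Dpagt1, the top 30 by FPKM and top 10 by FPKM times length, up to 4 leading members of a list and those listed at 0, the widest and steadiest 10 of the top 1000, the top 10 listed at 0 in 1 or 2 libraries, and the 3 on each side of the threshold. Other list members, gene ratios and Gm1821 were chosen after their values were seen. Alternatives covered scaling, thresholds, left-out libraries, length weighting and promoter classes.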

Additional observations from a re-analysis of the deposited data

How the results depend on the processing

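No paired analysis was possible because no groups were compared and no test was made. Same-sum scaling, median-of-ratios scaling and quantile normalization kept the count of members between 5877 and 6169 and the count past 2-fold between 1484 and 1695. The count of members fell to 3788 at a minimum of 5 FPKM and was 9339 at 1 FPKM in at least 1 library. It was 6600 to 6647 with 1 library left out. Weighting by length gave 20.2%, 55.4% and 88.7% in the top 10, 100 and 1000 genes, and without Obox2 the shares were 20.3%, 58.25% and 91.9%. With 1 library left out they were 22.6% to 22.9%, 59.7% to 60.1% and 92.2% to 92.4%. The median coefficient of variation was 21.99% after scaling to the same sum, 26.9% with no filter, 18.97% from a mean of 5 FPKM, 9.51% from 100 FPKM and 17.4% to 18.3% with 1 library left out, where 2 values spread less by construction. The median SD of log2 values was 0.28 after scaling to the same sum, 0.31 with no filter, 0.33 with a pseudocount of 0.1 and 0.22 to 0.24 with 1 library left out. Past 2-fold were 952 to 1027 genes with 1 library left out (without replicate 4 it was 1027), and 253 passed 4-fold. Weighting by length moved Dppa3 to rank 8, Ooep to 16, Gdf9 to 56 and Zp3 to 315. Of 250 recomputed list counts 24 moved by over 1.5-fold, and of 350 list medians 42 moved by more than the spread between libraries. The promoter classes without the clustered families, and the motifs CAGGTG and CAGCTG, were added after seeing the data, and 11 of 35 promoter shares moved over the settings tried, 6 of them among the 7 recomputed without those families. Depth limits genes near 1 FPKM, where 1 or 2 fragments make the value.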
